A study of Homo sapiens with 9 samples.

Results

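The mitochondrial ribosomal protein genes were taken as the rows of the count table whose symbol is MRPL or MRPS, a number and, in some, a letter A to C. This rule found 78 of 56541 genes and used no measured value. The cells were MOLM-13, an established human acute myeloid leukemia line with a KMT2A rearrangement. There were 3 groups of 3 libraries. In shCONTROL a control hairpin was expressed and total RNA sequenced, in shBCLAF1 the hairpin targeted BCLAF1, and RIP is RNA precipitated together with BCLAF1 protein from shCONTROL cells. All 3 groups had received doxycycline at 200 ng/µL for 4 days. No library was without the drug, so its effect on these genes cannot be seen here. Whether that effect differs between the groups cannot be told either. RIP started from more cells than RNA-seq, and every library has the same batch label. The labels name no mock precipitation, no hairpin sequence and no clone, and do not say that replicates came from separate cultures. The p-values below therefore measure only the spread between these libraries, which may be technical.

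Mitochondria translate the few proteins encoded in their own genome on a ribosome of their own, the mitoribosome. Its RNAs come from mitochondrial DNA, while all of its proteins are encoded in the nucleus, made in the cytoplasm and imported. The MRPL genes encode proteins of the large subunit, which forms peptide bonds, and the MRPS genes those of the small subunit, which reads the mRNA. Some descend from bacterial ribosomal proteins and others were added during the evolution of mitochondria. MRPS18A and MRPS30 sit in the large subunit in spite of their names, and acute myeloid leukemia cells are known to be sensitive to inhibition of mitochondrial translation. BCLAF1 is a nuclear protein of the SR-like family that takes part in transcription and RNA processing. With MRPS18A and MRPS30 counted there, 51 of the 78 genes were assigned to the large subunit and 27 to the small one. The 27 include MRPS36 by its symbol, although it has since been described as part of another complex. A bacterial counterpart is known for 48, and 30 have none.

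The 78 genes lie on 21 chromosomes, and their spans run from 677 to 111543 bases with a median of 8643 (RefSeq, GRCh38.p14). RefSeq promoter windows, 250 bases before to 50 after a gene's start, were at hand for 70 of them. The letters AAGATGGCG, a match to the YY1 motif, occurred on either strand in 13 of these 70 windows (18.6%), against 1.85% of all 27305 windows and 2.74% of the 15843 windows of protein-coding genes. Of the 14 matches, 10 lay downstream of the start and 11 lay within 60 bases of it. The matches of 6 members described below are shown, 5′ to 3′ on the gene's strand, with the motif in capitals.
MRPL42, chr12:93467512-93467541, plus strand: ggattgaaacAAGATGGCGggttcgtggtg
MRPL46, chr15:88467361-88467390, minus strand: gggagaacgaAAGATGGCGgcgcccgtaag
MRPS10, chr6:42217833-42217862, minus strand: cgggaccggcAAGATGGCGgcgcggacagc
MRPS18A, chr6:43687763-43687792, minus strand: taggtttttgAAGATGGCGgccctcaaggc
MRPS18B, chr6:30617853-30617882, plus strand: ggcgtacgtcAAGATGGCGgcgtctgtatt
MRPS30, chr5:44808950-44808979, plus strand: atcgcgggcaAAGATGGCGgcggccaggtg
In all 6 the motif begins 9 to 24 bases after the start and reads in the direction of the gene. The motif contains ATG, the letters of a start codon. Whether these matches overlap the first codons of the genes was not checked, and binding of YY1 was not measured.

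CCGGAAG, the core bound by ETS factors such as GABPA, occurred in 29 of the 70 windows (41.4%), against 10.7% of all windows and 14.2% of those of protein-coding genes. MRPS10 and MRPS18A were 2 of the 4 members with both an ETS and a YY1 match, and no ETS match overlapped a YY1 match in any member. The ETS matches of both genes lay upstream of the start, at 22 and 31 bases.
MRPS10, chr6:42217865-42217894, minus strand: ccgctgtaaccCCGGAAGcaatcctgagag
MRPS18A, chr6:43687804-43687833, minus strand: ggcgctacgttCCGGAAGcggaaatggacg
The other 3 motifs were also searched on both strands. The NRF1 palindrome occurred in 11.4% of member windows, 6.28% of all windows and 8.58% of coding ones. The E-box, CACGTG, occurred in 10.0% of member windows, 7.43% of all windows and 8.88% of coding ones. TATAAA, the letters of the TATA box, was rarer among members, in 3 of 70 windows (4.29%) against 3264 of 27305 and 9.63% of coding windows. None of the matches in members lay within 60 bases of the start. Among the 79 genes for cytoplasmic ribosomal proteins, 63 had a window, with an ETS match in 33.3% and a YY1 match in 7.94%. Of members with a window, 20 (28.6%) had another protein-coding gene starting within 1000 bases on the opposite strand, against 10.3% of protein-coding genes. These shares describe letters in windows of 1 length, and no difference between them was tested.

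One such pair consists of 2 members. MRPL46, on the minus strand, and MRPS11, on the plus strand, start 320 bases apart on chromosome 15, and most of the stretch between them is shown because the 2 genes took opposite sides in the RIP comparison below.
MRPS11, chr15:88467458-88467707, plus strand: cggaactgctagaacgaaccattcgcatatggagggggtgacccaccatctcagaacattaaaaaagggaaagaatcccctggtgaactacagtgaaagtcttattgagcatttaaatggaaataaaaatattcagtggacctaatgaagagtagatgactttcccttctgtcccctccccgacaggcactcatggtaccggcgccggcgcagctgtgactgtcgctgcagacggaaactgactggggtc
None of the 5 motifs occurred in these 250 bases.

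Library totals ran from 25819144 to 36635268 estimated counts, and every member had at least 47 counts in every library, so all 78 were tested in both comparisons. BCLAF1 itself stood at 322 ± 8.28 CPM (counts scaled to library size, with TMM factors over the 9 libraries; SD, n = 3) in shCONTROL and 114 ± 12.9 in shBCLAF1, which is a change of -1.50 on the log2 scale (SE 0.08, adjusted p = 0.000206). It was also higher in RIP than in shCONTROL RNA-seq, by 1.74 on the log2 scale (adjusted p = 0.000219). All 10 markers of the myeloid leukemia list were above 1 CPM in every library, and the shCONTROL libraries had a summed level of 1960 to 2040 CPM, against 3700 to 4200 for shBCLAF1 and 1620 to 1710 for RIP. LYZ, the lysozyme gene, carried most of the gap between shBCLAF1 and shCONTROL. It had 785, 673 and 733 CPM in shCONTROL, 2834, 2682 and 2435 in shBCLAF1 and 45.1, 34.1 and 60.1 in RIP. Without LYZ the other 9 summed to 1256 to 1289, 1269 to 1371 and 1579 to 1653 CPM. RIP, the lowest group with LYZ, was thus the highest without it. Every shBCLAF1 library lay above every shCONTROL library for LYZ, CD33, SPI1 and CD93 and below for FLT3, MEIS1, HOXA9 and CSF1R, while PTPRC and MPO overlapped. The T cell markers CD3E, CD3G and CD2 were at 0 in all libraries, and the 4-gene T cell list summed to 7.67 to 11.9 CPM. The B cell list summed to 1.35 to 3.33 CPM, the erythroid list to at most 2.66, and of the 4 epithelial and fibroblast markers at least 3 were at 0 in every group. The part of these marker shifts in the results below was not tested, and in bulk RNA fewer cells expressing a gene cannot be told apart from less of its RNA per cell.

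In shCONTROL the members together took 0.435% ± 0.0141 of all counts (SD, n = 3), of which the large subunit had 0.273% and the small subunit 0.162%. Mean levels of single members ranged from 7.86 to 176 CPM with a median of 47.7. CPM is not corrected for transcript length, so the order that follows is one of library share and not of molecules. The highest were MRPS27 at 176 ± 16.1 CPM, MRPS25 at 163 ± 39.8 and MRPS30 at 150 ± 2.38. MRPS27 is a pentatricopeptide-repeat protein of the small subunit, MRPS25 another small-subunit protein without a bacterial counterpart. Libraries of MRPS27 (160, 178 and 192 CPM) and MRPS25 (118, 179 and 193 CPM) overlapped, so their order is not resolved. The lowest were MRPL23, a protein at the exit of the peptide tunnel, at 7.86 ± 1.35 CPM, MRPL53 at 12.4 ± 0.488 and MRPS36 at 12.9 ± 1.31. MRPL53 and MRPS36 did not differ beyond their spread, and MRPL23 lay below both in every shCONTROL library. Between replicates, the coefficient of variation of a member had a median of 5.89% in shCONTROL, 6.43% in shBCLAF1 and 19.7% in RIP.

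After knock-down, as a whole, the family kept its share of total counts. Members took 0.440%, 0.419% and 0.447% of counts in shCONTROL replicates 1 to 3. In shBCLAF1 they took 0.433%, 0.424% and 0.435%, within the control range. With TMM scaling their sum was 4357, 4121 and 4397 CPM in shCONTROL and 4197, 4045 and 4062 CPM in shBCLAF1. On that scale shBCLAF1 replicates 2 and 3 lay below every control library. Within the family, 7 members rose and 14 fell, where 32.3% of all 16961 genes tested were called (15.5% higher and 16.9% lower). The called share of members was thus 8.97% higher, below the background, and 17.9% lower, near it. The median log2 fold change was -0.03 over the members and 0.02 over all genes tested, and no member changed by as much as 1 on the log2 scale. Libraries of the 2 groups did not overlap for 11 members above and 19 below, where 24.5% and 24.8% of all genes did so. With only changes of at least 0.5 counted, 1 member rose and 2 fell, where 6.87% and 7.81% of all genes did. Fitted together with the RIP libraries, which vary more, 2 rose and 3 fell, and the calls over all genes also dropped, to 6.48% higher and 7.57% lower of 17419. Without shCONTROL replicate 1 or shBCLAF1 replicate 1, 4 members rose, where 12.4% and 12.2% of all genes did.

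**Figure D1:**
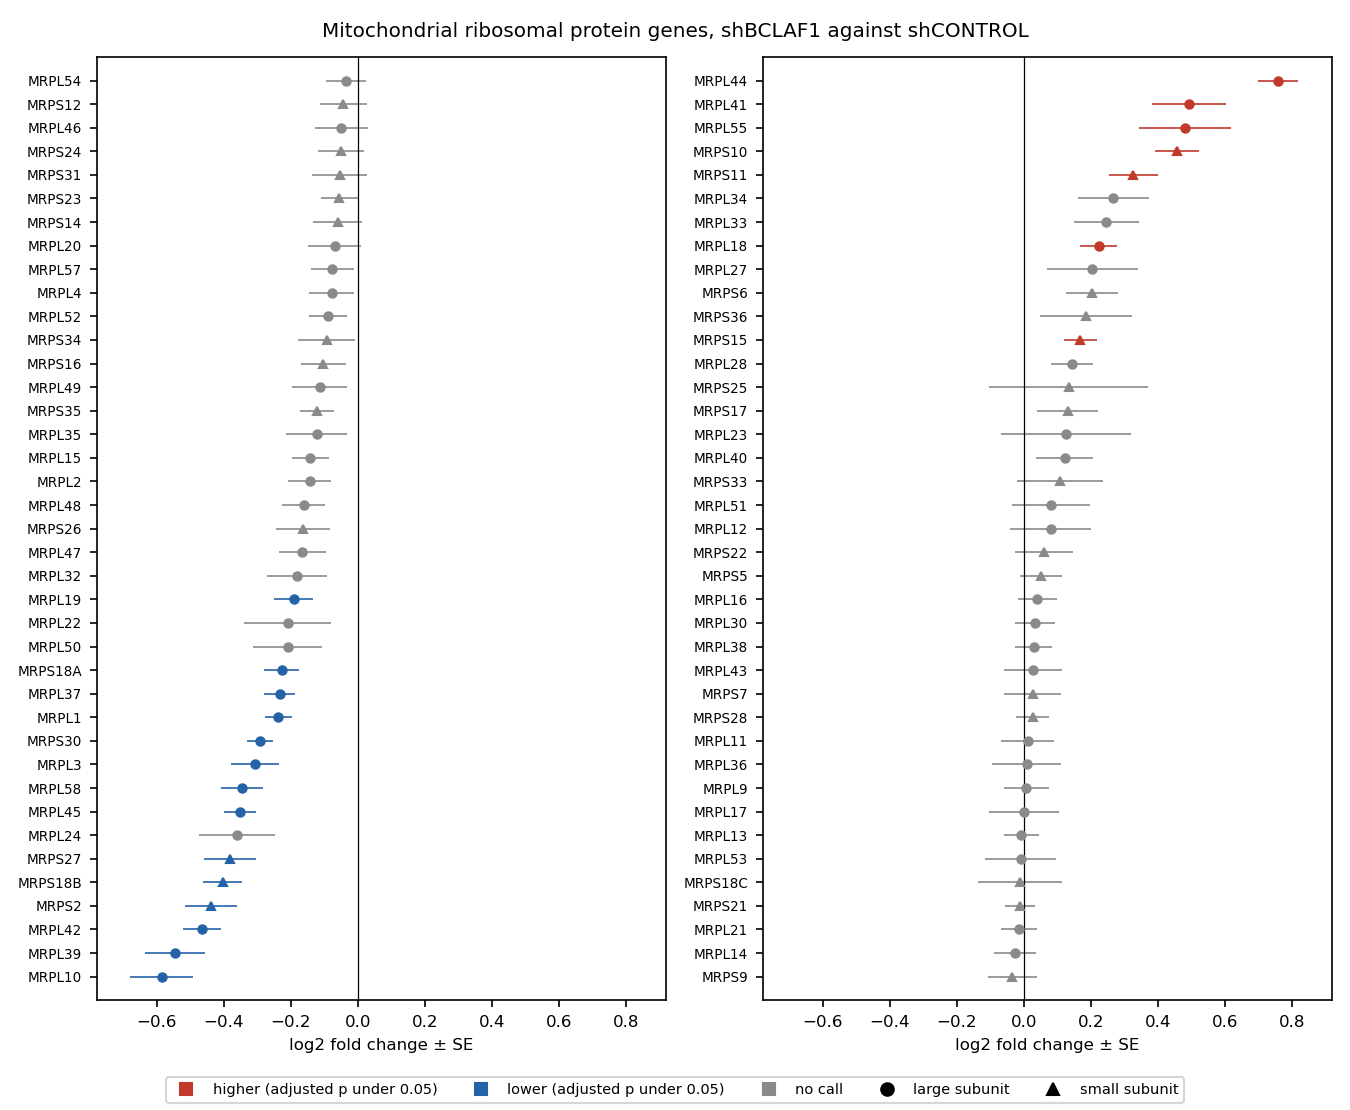
Log2 fold change of each of the 78 members, shBCLAF1 against shCONTROL, with its standard error (edgeR, 3 libraries a group); colours mark calls at adjusted p under 0.05, circles the large and triangles the small subunit. Values run from -0.59 (MRPL10) to 0.76 (MRPL44), with 7 called higher, 14 called lower and 57 without a call around 0.

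In the large subunit 4 members rose and 11 fell (median -0.05), and in the small subunit 3 rose and 3 fell (median -0.01). Of the members with a bacterial counterpart 5 rose and 7 fell, and of those without one 2 rose and 7 fell. The difference between these classes was not tested. Of the 57 members without a call, 6 had an unadjusted p under 0.05, the lowest adjusted p among them being 0.0568. The matching share over all genes without a call was not worked out, so this count is only a listing.

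MRPL44, a large-subunit protein with an RNase III-like fold, showed the highest change of the family. It stood at 27.0, 25.3 and 24.8 CPM in shCONTROL and at 45.8, 42.5 and 42.1 CPM in shBCLAF1, a 1.69-fold rise (log2 fold change 0.76, SE 0.06, adjusted p = 0.000469). All 3 shBCLAF1 libraries lay well above all 3 shCONTROL libraries. MRPS10, the small-subunit homologue of bacterial S10, stood at 63.9, 59.4 and 60.2 CPM in shCONTROL and 89.8, 84.7 and 77.3 CPM in shBCLAF1 (change of 0.46 on the log2 scale, SE 0.07, adjusted p = 0.00333). These groups were also apart, with shBCLAF1 replicate 3 the lowest of its group. MRPS11, the homologue of bacterial S11, rose from 34.2, 31.8 and 36.2 to 45.7, 41.4 and 41.0 CPM (log2 fold change 0.33, adjusted p = 0.0165). MRPL46, which starts 320 bases away, stood at 23.8, 22.9 and 24.0 CPM and at 21.5, 21.7 and 25.03 CPM and passed no test (log2 fold change -0.05, adjusted p = 0.686). Its 2 groups overlapped where those of MRPS11 did not.

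The remaining risers depended more on single libraries. MRPL41, a large-subunit protein also described as a regulator of apoptosis, rose from 28.1, 24.8 and 30.9 to 37.6, 36.3 and 43.8 CPM (log2 fold change 0.49, adjusted p = 0.0173), and lost its call without shCONTROL replicate 1. MRPL55 went from 20.3, 16.6 and 21.2 to 25.9, 23.9 and 31.3 CPM (log2 fold change 0.48, adjusted p = 0.042). It lost its call in 5 of the 6 fits that left out 1 library. MRPL18, the homologue of the bacterial protein that binds 5S rRNA, rose by 0.22 (adjusted p = 0.0246), a call lost without shBCLAF1 replicate 1 or 2. MRPS15 rose by 0.17 (adjusted p = 0.0446) and also lost its call in 5 of those 6 fits.

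Among the members that fell, MRPL10 had the largest change. It anchors the stalk of the large subunit that recruits translation factors. Its level was 44.9, 39.5 and 44.3 CPM in shCONTROL and 31.9, 27.7 and 26.1 CPM in shBCLAF1 (change of -0.59 on the log2 scale, SE 0.09, adjusted p = 0.00502), so the highest shBCLAF1 library lay below the lowest control. MRPL12, which forms the stalk with MRPL10 and also binds the mitochondrial RNA polymerase, stood at 78.3, 68.8 and 78.4 CPM and at 72.0, 72.3 and 94.0 CPM. Its groups overlapped and it passed no test (log2 fold change 0.08, adjusted p = 0.668). MRPL1, the protein of the other stalk, fell by 0.24 (adjusted p = 0.00686).

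MRPL39 and MRPL42, both without a bacterial counterpart, fell next to MRPL10. MRPL39, whose fold resembles threonyl-tRNA synthetase, went from 30.1, 26.5 and 29.5 to 21.1, 20.1 and 17.7 CPM (log2 fold change -0.55, SE 0.09, adjusted p = 0.00553). MRPL42 went from 115, 107 and 108 to 83.6, 81.5 and 74.1 CPM (log2 fold change -0.46, SE 0.06, adjusted p = 0.00193). Groups did not overlap for either gene. MRPL45, which tethers the ribosome to the inner membrane beside the peptide exit, fell from 59.3, 59.6 and 58.2 to 48.6, 45.3 and 44.7 CPM (log2 fold change -0.35, adjusted p = 0.00264). MRPL58, a peptidyl-tRNA hydrolase built into the large subunit that can free stalled peptides, fell from 30.8, 29.8 and 33.1 to 25.1, 23.8 and 24.7 CPM (log2 fold change -0.35, adjusted p = 0.00762). In both genes every shBCLAF1 library lay below every control library. MRPL37 fell by 0.23 (adjusted p = 0.0118). MRPL3 (-0.31) and MRPL19 (-0.19, adjusted p = 0.0477), homologues of bacterial L3 and L19, complete the large-subunit genes, and like MRPL1 they are named here after their values were seen.

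The 3 human homologues of bacterial S18 occupy different places in the mitoribosome, and their RNAs did not move alike. MRPS18B, at a site of its own in the small subunit, stood at 122, 118 and 117 CPM in shCONTROL and 97.4, 87.5 and 85.2 CPM in shBCLAF1 (change of -0.40 on the log2 scale, SE 0.06, adjusted p = 0.00342). MRPS18A, in the large subunit, fell less, from 51.7, 50.1 and 48.8 to 45.0, 40.8 and 42.7 CPM (log2 fold change -0.23, adjusted p = 0.0202). That call was lost without shCONTROL replicate 1, shCONTROL replicate 2 or shBCLAF1 replicate 2. MRPS18C, at the S18 site of the small subunit, stood at 17.9, 15.8 and 16.3 CPM and at 18.2, 17.7 and 13.7 CPM, with overlapping groups (log2 fold change -0.01, SE 0.13, adjusted p = 0.958). Differences between the 3 genes were not tested. MRPS30, the other large-subunit protein with an MRPS name, fell from 150, 152 and 147 to 127, 118 and 122 CPM (log2 fold change -0.29, adjusted p = 0.00252).

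MRPS2, the homologue of bacterial S2, and MRPS27 were the other small-subunit genes that fell. MRPS2 went from 70.3, 59.6 and 65.5 to 49.8, 49.7 and 44.6 CPM (log2 fold change -0.44, adjusted p = 0.00725). MRPS27 went from 160, 178 and 192 to 139, 127 and 140 CPM (log2 fold change -0.38, adjusted p = 0.0124). MRPS36, since described as a subunit of the 2-oxoglutarate dehydrogenase complex, did not pass the test (log2 fold change 0.19, adjusted p = 0.369). MRPL44, MRPS10, MRPL10, MRPL42 and MRPS2 kept their calls in all 13 other fits of this comparison. MRPL37, MRPL39, MRPL45, MRPL58, MRPS11, MRPS18B, MRPS27 and MRPS30 lost theirs only in the fit of all 9 libraries, where adjusted p ran from 0.0512 (MRPS30) to 0.273 (MRPL58).

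**Figure D2:**
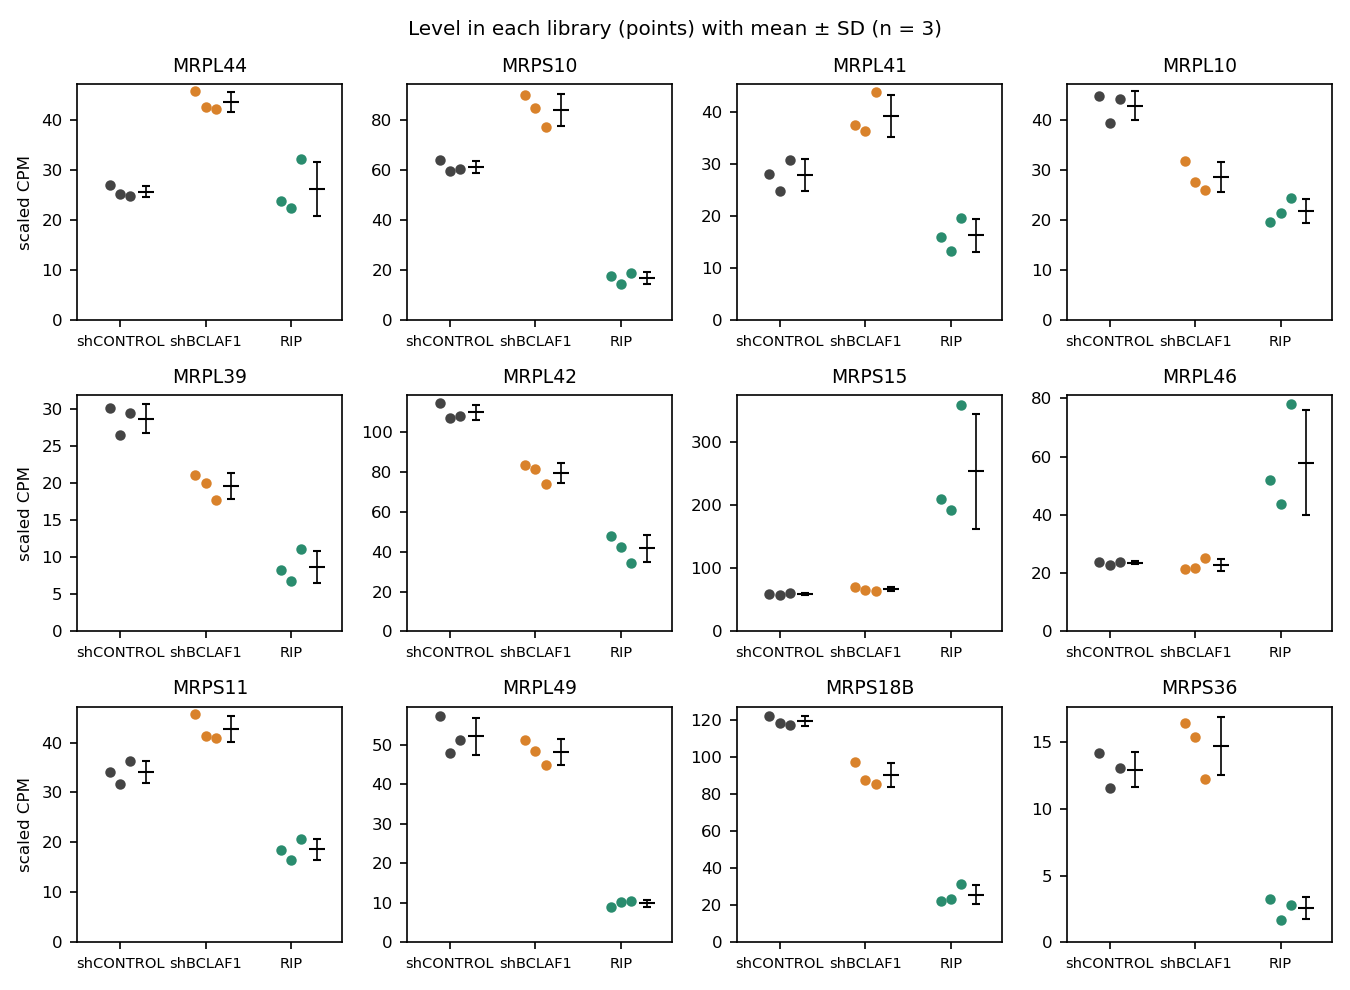
Level of 12 members in each library (points, TMM-scaled CPM on axes that start at 0), with the mean ± SD of each group beside them. MRPL44, MRPS10, MRPL41 and MRPS11 are higher in shBCLAF1 than in shCONTROL and MRPL10, MRPL39, MRPL42 and MRPS18B are lower, while in RIP MRPS15 and MRPL46 are high and MRPL49 and MRPS36 low.

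The lists of other mitochondrial genes are read against the same background, 15.5% of all genes higher and 16.9% lower. Of 5 mitoribosomal proteins whose symbol does not begin with MRP, DAP3, a GTP-binding protein of the small subunit, rose by 0.16 (adjusted p = 0.0216) and none fell. Among 29 factors of mitoribosome assembly and rRNA maturation 2 rose and 8 fell (6.90% and 27.6%; median -0.08), with TRMT2B, a methyltransferase of mitochondrial RNA, at 0.76 and MTERF3, which takes part in ribosome biogenesis, and the assembly GTPase GTPBP10 at -0.73 and -0.51. Of 15 mitochondrial translation factors 1 rose and 4 fell (6.67% and 26.7%), among them initiation factor MTIF2 (-0.54), recycling factor MRRF (-0.40) and the membrane insertase OXA1L (-0.61). Of 14 genes of mitochondrial transcription and RNA processing 1 rose and 2 fell (7.14% and 14.3%), the helicase SUPV3L1 (-0.47) and the mRNA-stabilising LRPPRC (-0.33). Of the 13 mRNAs made in mitochondria MT-ND3 alone passed (0.47, adjusted p = 0.00939), with a median of 0.20 over the 13. The cytoplasmic counterpart moved differently: 70 of 79 genes for cytoplasmic ribosomal proteins fell and none rose (median -0.43), and their share of counts was 3.84% ± 0.00781 in shCONTROL and 2.93% ± 0.0933 in shBCLAF1. The difference between the 2 ribosome families was not tested beyond these counts. Of 9 regulators of nuclear mitochondrial genes that could be tested, MYC (-0.88) and GABPB2 (-1.01), a partner of the ETS factor GABPA, fell and the coactivator PPARGC1B rose (0.40). Members with an ETS match were 1 of 7 risers, 3 of 13 that fell and 25 of 50 without a call that had a window. Those with a YY1 match were 1 of 7, 4 of 13 and 8 of 50. Over all 70 members with a window, 29 had an ETS match and 13 a YY1 match. No difference between these classes and no link to the regulators was tested.

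**Figure D3:**
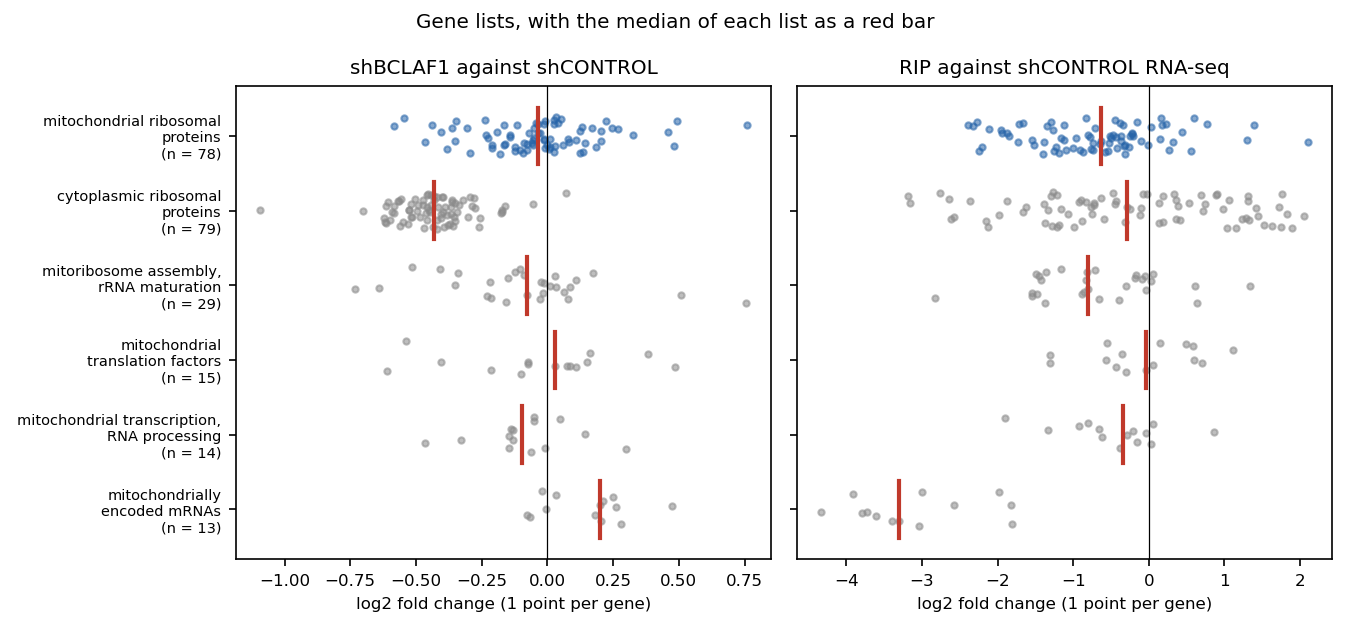
Log2 fold change of every gene (points) of the members and 5 gene lists, shBCLAF1 against shCONTROL on the left and RIP against shCONTROL RNA-seq on the right, with list medians as red bars. The members centre near 0 after knock-down (median -0.03) while the cytoplasmic ribosomal proteins lie at a median of -0.43, and in RIP the members lie at -0.64 and the mitochondrially encoded mRNAs at -3.31.

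RIP asks which RNAs are found with BCLAF1, and here it was set against the RNA-seq of the same shCONTROL cells. The 2 kinds of library also differ in cell number and in the steps before RNA extraction, and with no mock precipitation these cannot be told apart from the precipitation. Most members were less abundant in RIP: they took 0.292%, 0.230% and 0.323% of counts in the 3 RIP libraries, all below every shCONTROL library. 44 members were lower and 5 higher, where 49.2% of all 16727 genes tested were called (24.6% higher and 24.7% lower). The members' shares were 56.4% lower and 6.41% higher. With a change of at least 1 on the log2 scale required, 28 were lower and 3 higher, where 13.6% and 11.1% of all genes were. Libraries of the 2 groups did not overlap for 50 members below and 7 above, against 35.7% and 31.4% of all genes. The median log2 fold change was -0.64 over the members and -0.05 over all genes.

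The 3 RIP libraries differed among themselves. The median log2 ratio of the members to their shCONTROL mean was -0.68, -0.92 and -0.49 in RIP replicates 1, 2 and 3. Replicate 3 was the highest of the 3 for 62 of the 78 members and replicate 2 the lowest for 55. Without RIP replicate 2, 8 members were called higher and 42 lower, where 24.5% and 25.5% of all genes were. Without RIP replicate 3, 5 members were higher and 55 lower, where 24.1% and 25.5% of all genes were. Scaled by total counts alone, all genes tested shifted by a median of -0.12. In that fit 5 members were higher and 47 lower, where 20.3% and 27.2% of all genes were.

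**Figure D4:**
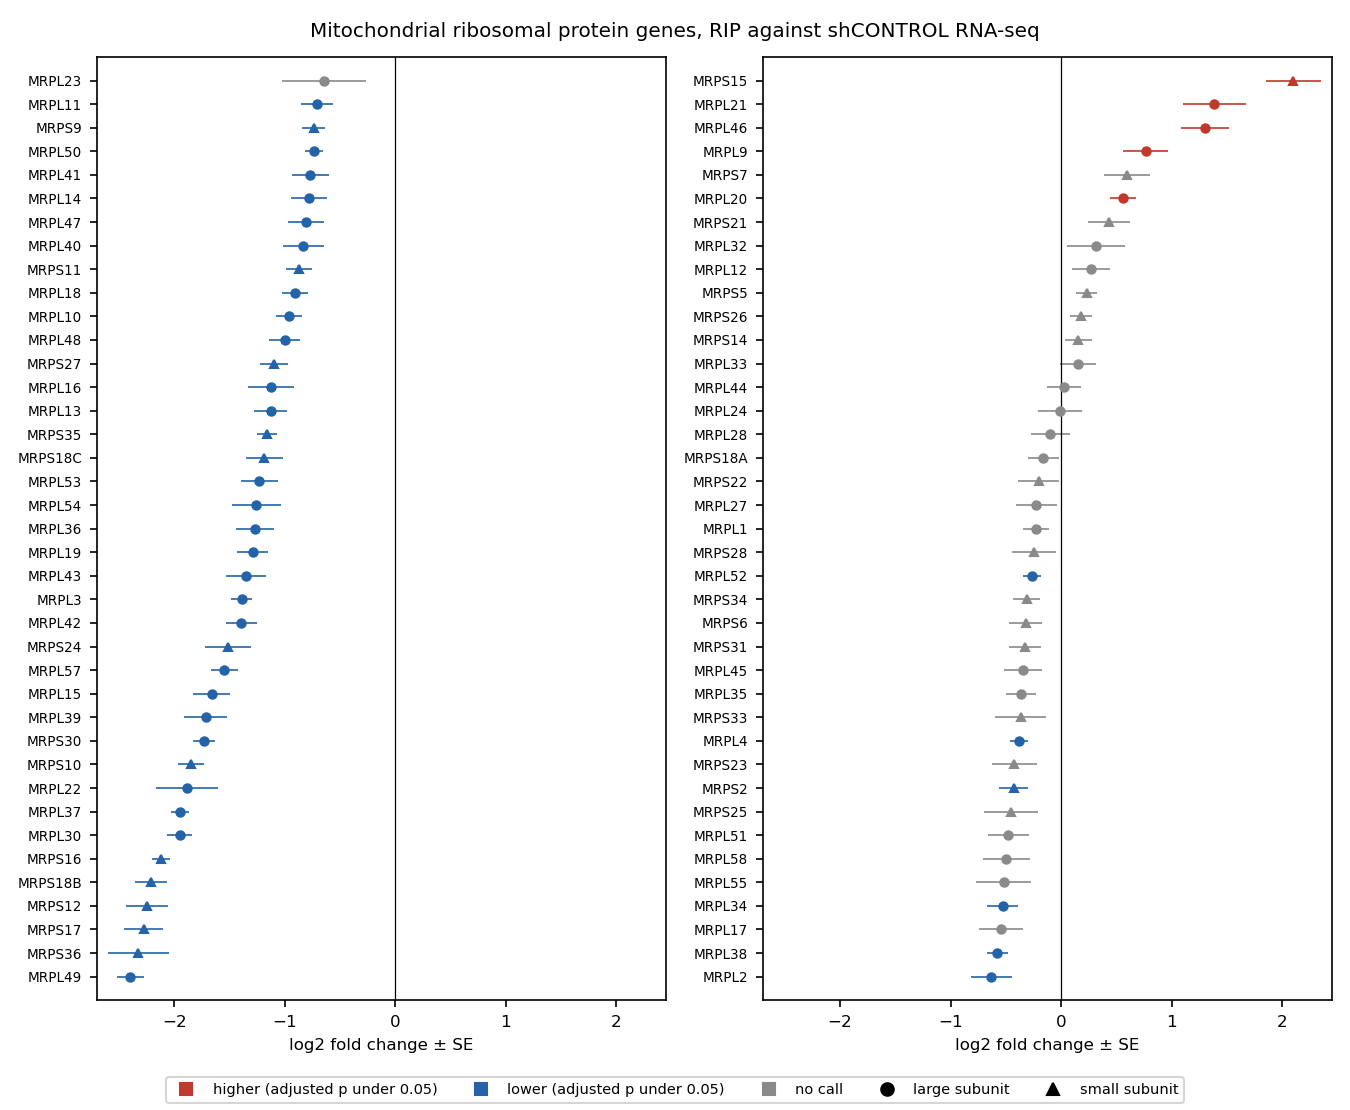
Log2 fold change of each of the 78 members, RIP against shCONTROL RNA-seq, with its standard error (edgeR, 3 libraries a group); colours mark calls at adjusted p under 0.05, circles the large and triangles the small subunit. Values run from -2.40 (MRPL49) to 2.10 (MRPS15), with 5 members called higher and 44 called lower.

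MRPS15, the homologue of bacterial S15, a protein that binds the small-subunit rRNA early in assembly, was the member highest in RIP. It stood at 60.01, 57.7 and 60.2 CPM in shCONTROL and 210, 192 and 359 CPM in RIP, a 4.29-fold difference (log2 fold change 2.10, SE 0.25, adjusted p = 0.00119). Every RIP library exceeded every RNA-seq library, and RIP replicate 3 stood far above the other two. MRPL21 reached 70.9, 58.8 and 126 CPM in RIP from 34.0, 31.2 and 33.1 in shCONTROL (log2 fold change 1.38, SE 0.29, adjusted p = 0.00872). MRPL46, a protein with a Nudix-like fold, reached 51.8, 43.7 and 78.1 CPM from 23.8, 22.9 and 24.0 (log2 fold change 1.30, SE 0.22, adjusted p = 0.0038). Replicate 3 was again the highest in both, and groups did not overlap.

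MRPL9 and MRPL20, both with a bacterial counterpart, were higher by 0.76 (adjusted p = 0.0221) and 0.56 (adjusted p = 0.00976). The call of MRPL9 was lost when any 1 shCONTROL library was left out. The MRPL9 span overlaps OAZ3, which stood at under 1 CPM in the mean of every group. MRPL20 went from 42.5, 39.5 and 40.7 to 59.8, 51.4 and 68.8 CPM, with no overlap.

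At the other end stood MRPL49, a large-subunit protein without a bacterial counterpart. It fell from 57.3, 48.0 and 51.2 CPM in shCONTROL to 8.86, 10.3 and 10.4 CPM in RIP, 5.27-fold lower (log2 fold change -2.40, SE 0.12, adjusted p = 0.000205). Its span overlaps SYVN1, whose mean was 55.4 CPM in shCONTROL and 23.9 in RIP. MRPS36 stood at 14.2, 11.6 and 13.1 CPM against 3.27, 1.65 and 2.80 CPM in RIP (log2 fold change -2.32, adjusted p = 0.00114). Both genes showed a wide gap between groups.

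Several small-subunit proteins with bacterial counterparts were among the lowest. MRPS12, at the decoding centre, was lower by 2.25 on the log2 scale (55.3, 49.7 and 58.1 CPM against 10.8, 8.97 and 14.5). MRPS17 was lower by 2.27 (20.5, 18.5 and 20.4 CPM against 3.34, 3.94 and 4.94), and MRPS16 by 2.12 (113, 105 and 112 CPM against 26.6, 24.97 and 23.9). Adjusted p was 0.000456, 0.000355 and 0.000142, and no RIP library of the 3 genes approached the RNA-seq range. MRPL30 (-1.95, adjusted p = 0.000224) and MRPL37 (-1.95, adjusted p = 0.000142) had the next lowest values among the large-subunit genes. By subunit, 31 of 51 large-subunit members were lower and 4 higher (median -0.71), and 13 of 27 small-subunit members were lower and 1 higher (median -0.43). The difference between subunits was not tested.

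The S18 homologues were apart here too. MRPS18B had 22.1, 23.4 and 31.4 CPM in RIP (log2 fold change -2.21, adjusted p = 0.000274) and MRPS18C 7.85, 5.80 and 8.26 CPM (-1.18, adjusted p = 0.00207). MRPS18A, with 37.3, 44.0 and 53.0 CPM, overlapped its shCONTROL libraries and had no call (-0.16, adjusted p = 0.369). Of the other members with roles of their own, MRPS30 was lower (-1.73, adjusted p = 0.000224), while MRPL12 (0.27, adjusted p = 0.248) and MRPL58 (-0.50, adjusted p = 0.1) had no call. MRPL58 passed, as lower, without RIP replicate 3.

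In RIP the lists stand beside 24.6% of all genes higher and 24.7% lower. Assembly factors were lower in 18 of 29 (62.1%) and higher in 3 (10.3%; median -0.81), with NDUFAB1, the mitochondrial acyl carrier protein, at -2.83. Of 15 translation factors 5 were higher and 5 lower (33.3% each), with the release factor MTRF1 at 1.12. Of the 14 transcription and RNA-processing genes 6 were lower (42.9%) and 1 higher, of the 5 mitoribosomal proteins without an MRP symbol none was called, and of the 9 regulators 2 were higher and 1 lower. All 13 mitochondrially encoded mRNAs were lower (median -3.31), and their share of counts was 2.77% in shCONTROL and 0.289% in RIP. Of the 79 cytoplasmic ribosomal protein genes 34 were lower and 23 higher (43.0% and 29.1%; median -0.30).

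Both comparisons use the same shCONTROL libraries, so chance deviations of those libraries enter both and agreement between them is not counted as support. The share of all genes called in both comparisons was not worked out, so the joint counts below are a listing without a background. With 44 of the 78 members lower in RIP, many of the 14 that fell after knock-down would be among them in any case. Side by side, 10 members were lower in both: MRPL3, MRPL10, MRPL19, MRPL37, MRPL39, MRPL42, MRPS2, MRPS18B, MRPS27 and MRPS30. MRPL10, for example, had log2 fold changes of -0.59 after knock-down and -0.96 in RIP, and MRPL42 had -0.46 and -1.39. MRPS2 had only -0.43 in RIP (adjusted p = 0.033). Its RIP call was lost without shCONTROL replicate 1, shCONTROL replicate 3, RIP replicate 1 or RIP replicate 2. MRPL18, MRPL41, MRPS10 and MRPS11 were higher after knock-down and lower in RIP, MRPS10 with 0.46 and -1.85 (17.6, 14.4 and 18.8 CPM in RIP). MRPS15 alone was higher in both, by 0.17 and 2.10. MRPL44 and MRPL55 rose after knock-down with no call in RIP, where MRPL44 stood at 23.7, 22.4 and 32.3 CPM, around its shCONTROL level. MRPL1, MRPL45, MRPL58 and MRPS18A fell after knock-down with no call in RIP, and 23 members had no call in either comparison. Of the divergent pair, MRPL46 was higher in RIP, while MRPS11 was lower (-0.87, SE 0.12, adjusted p = 0.00186; 18.6, 16.5 and 20.8 CPM). The test of the difference between the 2 genes was not run.

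Some members may share reads with a neighbouring gene. The spans of 18 members overlap another protein-coding gene, and the sources used here do not say whether counting used strand. MRPS25 had the largest coefficient of variation of all members in both RNA-seq groups (24.4% and 24.0%), and its span overlaps NR2C2, a nuclear receptor gene. MRPS25 had 118, 179 and 193 CPM in shCONTROL where NR2C2 had 153, 106 and 89.5 CPM. In shBCLAF1 MRPS25 had 143, 227 and 168 CPM where NR2C2 had 122, 42.1 and 90.9 CPM. In each of these groups the library highest in one gene was the lowest in the other. Their sum was 271, 285 and 283 CPM in shCONTROL and 265, 269 and 259 CPM in shBCLAF1, with coefficients of variation of 2.61% and 1.87%. In RIP MRPS25 had 152, 108 and 96.5 CPM, NR2C2 128, 173 and 131 CPM and their sum 280, 281 and 227 CPM. The sum varied less than MRPS25 alone in all 3 groups, and MRPS25 passed neither test (log2 fold change 0.13, adjusted p = 0.716 after knock-down, and -0.45, adjusted p = 0.179 in RIP). This pair was chosen after its values were seen. Over the overlapping pairs with counts for both genes, the sum varied less than the member in 12 of 16 pairs in shCONTROL, 13 of 17 in shBCLAF1 and 14 of 16 in RIP. Other pairs went the opposite way: in shBCLAF1 the coefficient of variation was 3.45% for MRPL14 and 19.6% for its sum with TMEM63B, and 6.63% for MRPL47 and 29.2% for its sum with ACTL6A. A sum of 2 genes can vary less than 1 of them without any shared reads, and no unrelated pairs were set beside these. The pairs also include neighbours of very low level, such as OAZ3 at group means of 0.26 to 0.70 CPM. Whether reads are shared was not tested.

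**Figure D5:**
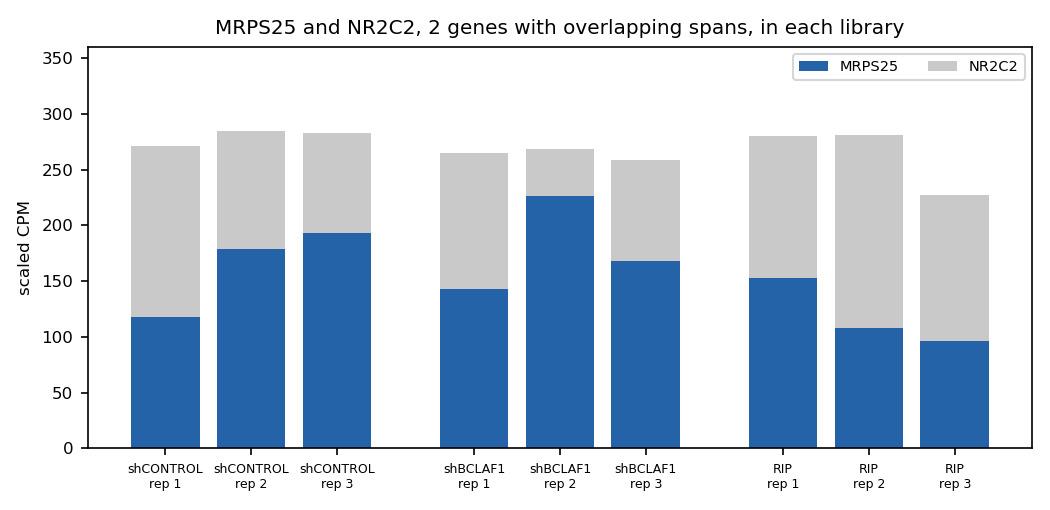
Stacked bars of MRPS25 and NR2C2, whose spans overlap, in each of the 9 libraries (TMM-scaled CPM, axis from 0). The share of MRPS25 in a bar differs between replicates, while the total is 271 to 285 CPM in shCONTROL and 259 to 269 CPM in shBCLAF1. In RIP the totals are 280, 281 and 227 CPM.

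Members with pseudogenes may share reads with them. The table lists 68 pseudogenes carrying a member's symbol, of which 55 were at 0 in every library, and all together they amounted to 0.694% to 1.26% of the members' counts. Over the 78 members, Pearson's r of the RIP difference with log10 gene span was -0.015 (Spearman's rho -0.022). With log10 mean CPM in shCONTROL it was -0.114 (rho -0.143). Span is the length on the chromosome, and the length of the RNA was not at hand. For the knock-down the values were -0.203 (rho -0.195) for span and -0.335 (rho -0.31) for level. These are correlations across genes that share the same libraries, given as a description, and the shCONTROL level enters both sides of each correlation with level.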

How the data were processed

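The measurements are estimated counts, deposited by the authors as whole numbers without normalization in 1 table of all 9 libraries. The labels' protocols give ribosomal RNA depletion, a stranded total RNA kit and paired reads of 50 bases, and the submitters' processing notes name STAR 2.7.11b, StringTie 2.2.3 and hg38. The annotation and the step from alignments to counts are not given in the sources used here. A row without a gene name, with 2.18% to 3.75% of counts in the 8 libraries where it has a value, was left out.

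Each comparison was fitted on its own 6 libraries over all genes with edgeR 4.0.16 (R 4.3.3): filterByExpr, TMM factors and the quasi-likelihood F-test, with Benjamini-Hochberg adjustment over all genes tested and a threshold of 0.05. Standard errors were derived from the fold change and F. With 3 against 3 libraries an exact permutation test of 1 gene could not go below 0.1, so none was used. A count of 3, the limit that a count of 0 allows, equals 0.0819 to 0.116 CPM. Precision is set by the spread of 3 libraries. The fit was tested on counts simulated with its own dispersions and with known changes larger than that of any member after knock-down. It does not measure how well changes as small as those of the members are called.

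Members and lists (mitoribosomal proteins without an MRP symbol, assembly, translation factors, mitochondrial transcription, mitochondrial mRNAs, regulators, cytoplasmic ribosomal proteins, and marker lists) were chosen with earlier results of these data known, so list counts are descriptions. Named members were the 8 lowest and 8 highest called in each comparison with a mean of at least 50 counts, the 3 highest and lowest in shCONTROL, and those with a role of their own. Motifs and overlapping pairs were looked at after the data were seen. All 78 symbols matched RefSeq, 77 directly and MRPS36 by synonym. Alternatives were DESeq2 1.42.0, other scalings and filters, 1 fit of all libraries, the replicate number as a block, a minimum change and leaving out each library.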

Additional observations from a re-analysis of the deposited data

How the results depend on the processing

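The count of members lower in RIP stayed within 1.5 times of 44, and the median in RIP within the replicate spread, in the alternatives listed in the processing summary, whose minimum change is 0.5. The stricter minimum of 1 left 28 lower and 3 higher. After knock-down, a single fit of all 9 libraries, whose shared spread includes RIP, called 2 members higher and 3 lower in place of 7 and 14, and a minimum change of 0.5 left 1 and 2. Leaving out 1 library gave 4 to 6 members higher and 11 to 14 lower after knock-down, and 4 to 8 higher and 39 to 55 lower in RIP. The 4 after knock-down came without shCONTROL replicate 1 or shBCLAF1 replicate 1, and the 8 without RIP replicate 2. In the same fits 11.4% to 15.3% of all genes were higher and 12.5% to 15.8% lower after knock-down. In RIP 18.4% to 24.5% of all genes were higher and 19% to 26.7% lower. Scaled by total counts alone, the members' median after knock-down was 0.0162 in place of -0.03, and the cause was not tested beyond the shift of 0.05 in the median of all genes. That scaling also turned the sign of members without a call: MRPL21 to 0.0371, MRPL46 to 0.0028, MRPL53 to 0.0421, MRPS12 to 0.0083 and MRPS18C to 0.0379 after knock-down, and MRPL44 to -0.089 in RIP. With no filter MRPL9 went to -0.0037 after knock-down. Leaving out 1 library moved uncalled members across 0 after knock-down: MRPL9 from -0.0453 to 0.0618, MRPL12 from -0.06 to 0.15, MRPL21 from -0.0428 to 0.0275, MRPL23 from -0.0598 to 0.27, MRPL30 from -0.0062 to 0.0948, MRPL53 from -0.0902 to 0.0781, MRPS12 from -0.0967 to 0.0122, MRPS18C from -0.0842 to 0.11 and MRPS25 from -0.0713 to 0.28. In RIP it moved MRPL44 from -0.14 to 0.12. After knock-down same-numbered libraries deviated together only weakly (r of 0.0169 to 0.0736), although more than differently numbered ones (-0.0544 to 0.0114). In RIP r was -0.0199 to 0.0199 for the same number and -0.0649 to 0.0523 for different numbers. With values this small the numbers are not taken as pairs in the main fits. With a replicate block 5 members were higher and 13 lower after knock-down, where 13.4% and 15% of all genes were. In RIP the block gave 6 higher and 46 lower, where 19.4% and 19.5% of all genes were. Members near the low end, such as MRPS36 with 47 counts or more, are limited by depth and spread together.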
